A study of Mus musculus with 12 samples.

Results

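The 10 genes described here encode proteins on the surface of oligodendrocyte precursor cells (OPCs) or in the matrix around them, and they were followed through cultures treated with IFN-γ or with dexamethasone. They were taken by name from the 55536 genes in the quantified libraries: the receptors Pdgfra and Gpr17, the proteoglycan and matrix genes Cspg4, Ptprz1, Vcan and Matn4, and C1ql1, Lhfpl3, Cacng4 and Neu4. OPCs were isolated from the pooled brains of P4 to P6 mouse pups of both sexes and expanded with PDGFaa and bFGF, given in the labels as 10 and 20 ng/ml, while the study's methods give other concentrations. Cultures were left untreated (Ctr-OPCs) or received 1 µM dexamethasone (Dexa) or IFN-γ at 100 ng/ml, each over 48 h, with 4 replicates a group from different litters. The study's mouse line joined a Sox10:Cre transgene with the RCE:loxP (EGFP) reporter, which marks the whole oligodendrocyte lineage. Cells were selected either by that reporter or with CD140a beads, and the method used for a given library is not given in the sources used here. CD140a is the protein that Pdgfra encodes, so bead selection would itself enrich for a gene described below. The labels also name the EAE disease model, although the growth protocol describes cultures of pup brains.

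OPCs are the dividing cells of the oligodendrocyte lineage, and they give rise to the cells that form myelin. They divide in response to PDGF through the receptor encoded by Pdgfra and carry the NG2 proteoglycan encoded by Cspg4, and these surface proteins are the usual handles for finding and isolating them. OPCs also secrete chondroitin sulfate proteoglycans into the perineuronal and perinodal matrix, and Gpr17 peaks in cells that are leaving the precursor state and is lost before myelin is made.

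Sequence upstream of transcription starts as RefSeq places them was read from the RefSeq promoter set on build GRCm38.p6. The set held windows for 7 of the 10 genes and none for Gpr17, C1ql1 and Cacng4. Matn4 had 2 windows, so 8 windows of 250 bases were searched on both strands. The motifs were the STAT-type GAS core TTCNNNGAA, the interferon-type repeat (ISRE), the glucocorticoid receptor half-site AGAACA, the SOX motif AACAAT and the E-box CAGCTG. None of the matches found overlapped another. The 3 windows shown are the 2 that held a match and that of Cspg4, which changed with dexamethasone, and capitals mark the match.
Neu4, plus strand, chr1:94020243-94020492: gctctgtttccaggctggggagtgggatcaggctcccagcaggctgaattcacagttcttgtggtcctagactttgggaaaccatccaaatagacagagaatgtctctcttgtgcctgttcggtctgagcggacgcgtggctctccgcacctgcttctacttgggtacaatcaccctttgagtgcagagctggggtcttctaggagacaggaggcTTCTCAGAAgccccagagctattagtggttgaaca
Lhfpl3, plus strand, chr5:22745804-22746053: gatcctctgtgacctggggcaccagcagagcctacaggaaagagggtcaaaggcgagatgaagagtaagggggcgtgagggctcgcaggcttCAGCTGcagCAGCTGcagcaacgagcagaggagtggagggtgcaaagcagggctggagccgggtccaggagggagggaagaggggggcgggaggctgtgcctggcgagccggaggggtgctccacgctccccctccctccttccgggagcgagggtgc
Cspg4, plus strand, chr9:56864854-56865103: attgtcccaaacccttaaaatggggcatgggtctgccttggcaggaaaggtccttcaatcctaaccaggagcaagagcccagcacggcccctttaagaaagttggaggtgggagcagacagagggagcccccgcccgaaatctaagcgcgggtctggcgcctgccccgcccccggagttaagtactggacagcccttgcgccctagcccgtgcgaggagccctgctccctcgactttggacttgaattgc
The window of Neu4 held the only GAS core among the 8, a motif found in 7.02% of all 32851 windows of the same length. RefSeq starts can differ from the gene positions given below. The windows of Neu4 and Cspg4 run past the gene starts at 94020451 and 56865033, and the GAS core lies past that of Neu4. The window of Lhfpl3 held 2 copies of the E-box, which 13% of all windows hold at least once. The interferon-type repeat, AGAACA and AACAAT were in 0 of the 8 windows and in 2.98%, 16.1% and 9.42% of all windows. A match is a string of letters and was not tested as a binding site.

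The 11 complete libraries held between 19209059 and 52074655 reads in genes. The deposited table of Dexa replicate 3 was incomplete and was left out of all fits over these 11 libraries, so the Dexa group holds 3 libraries there. Levels are CPM, counts scaled to a fixed library total that TMM adjusts for library composition, and gene positions are on GRCm38. Differences are log2 fold changes ± SE from edgeR's quasi-likelihood test with the replicate number as a block, which compares treated and control cultures of 1 litter, and calls rest on a Benjamini-Hochberg adjusted p under 0.05 over 17919 genes. All 10 genes passed the filter of 10 counts in 4 libraries, with a smallest count of 60 (C1ql1 in IFN-γ replicate 1). Of the OPC markers beyond the 10, Olig1 and Olig2 averaged 315 and 115 TPM, a level that allows for transcript length, in Ctr-OPCs. Of 13 microglial genes, 9 had under 10 reads in every complete library, Aif1, Cx3cr1 and C1qa among them. The libraries are bulk RNA, so fewer cells of a type and less RNA per cell cannot be told apart in any value below.

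Replicate 1 stood apart from the other litters, and it was the lowest Ctr library for all 10 genes. In Ctr-OPCs of replicate 1, Neu4 was at 8.57% of the mean of replicates 2 to 4, Matn4 at 9.13%, Gpr17 at 12.5% and C1ql1 at 25.9%. Pdgfra was at 44.5% and Ptprz1 at 88.5%. The replicate term of the fit was called for 10 of the 10 genes, against 46.2% of all genes tested, with adjusted p from 3.02e-07 for Neu4 to 0.0205 for Ptprz1. The IFN-γ and Ctr groups overlapped for all 10 genes, while 5.43% of all genes lay lower with no overlap. A fit without the block called 0 of the 10 lower in edgeR, against 2.38% of all genes, and C1ql1 alone in DESeq2, against 4.83%, and the calls below therefore rest on the comparison within litters. The summed TPM of 9 astrocyte genes was 325 and 307 in Ctr replicates 1 and 2 and 156 and 213 in replicates 3 and 4, and that of 11 genes of committed oligodendrocytes was 218 and 376 against 608 and 749. The part of these levels in the differences between litters was not tested.

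**Figure D1:**
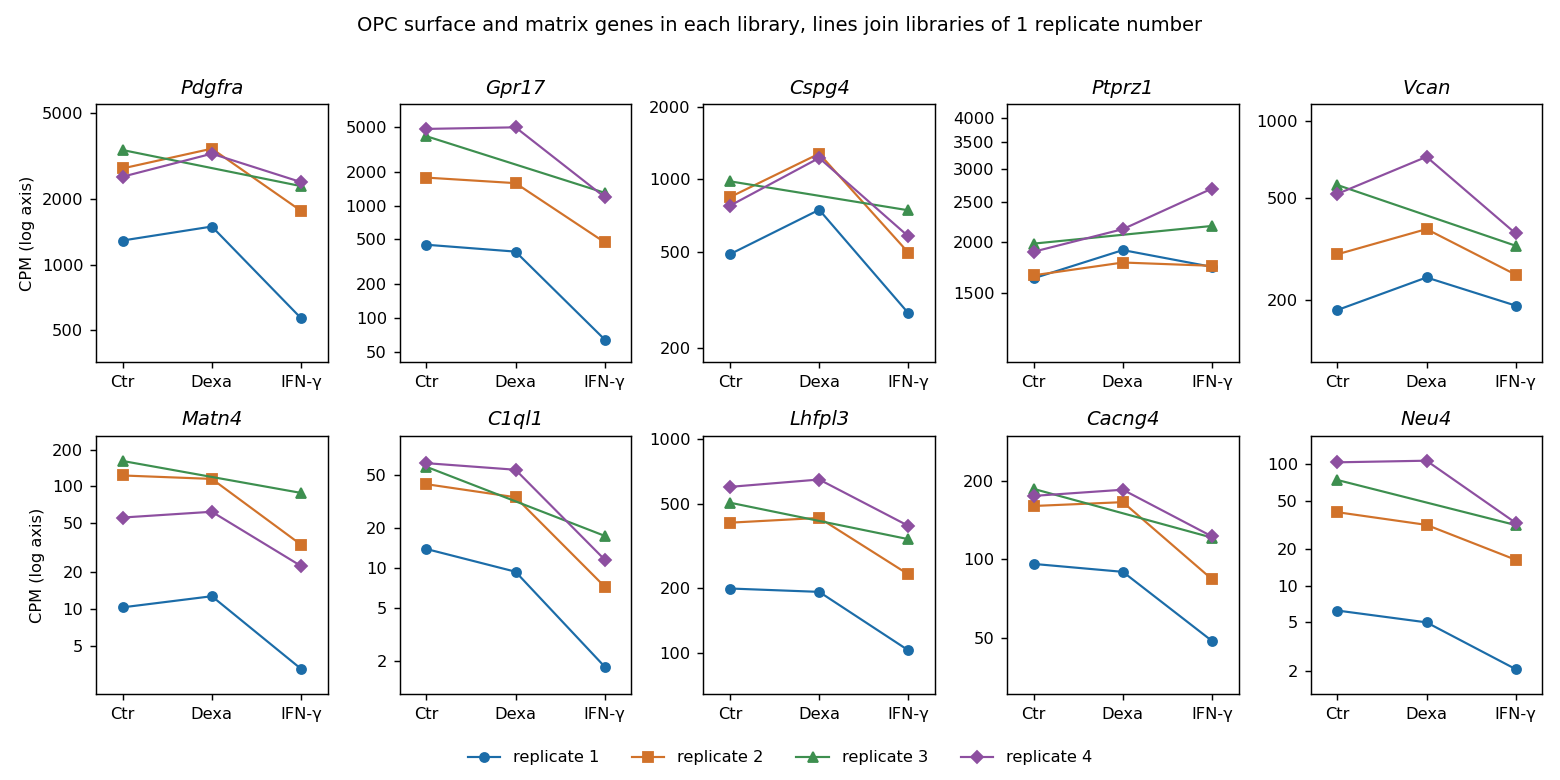
CPM (log axis) of the 10 genes in each of the 11 complete libraries, 1 panel a gene, with Ctr, Dexa and IFN-γ on the x axis and lines joining the libraries of 1 replicate number. Replicate 1 is the lowest of its group in nearly all panels, the lines of 8 genes run down from Ctr to IFN-γ in every replicate, and Cspg4 peaks in Dexa.

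On the TPM scale, levels in Ctr-OPCs ran from Gpr17 to Neu4. Gpr17 averaged 349 ± 250 TPM (SD, n = 4) and Pdgfra 309.9 ± 116, which ranked 101 and 116 among protein-coding genes and did not differ beyond their spread. Ptprz1 followed at 166 ± 21.5 TPM, the steadiest of the 10 between litters. Lhfpl3 was at 101 ± 41.7 and Cspg4 at 68.8 ± 22.2 TPM, whose spreads overlapped. Vcan was at 36.8 ± 17.3 TPM, below Cspg4 in every Ctr litter, and its spread overlapped with that of Cacng4 at 30.7 ± 8.68 TPM. Matn4 (23.3 ± 18.3), C1ql1 (21.5 ± 10.7) and Neu4 (10.6 ± 7.16) were the lowest, and the rank of Neu4 was 5157.

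In IFN-γ-treated OPCs, the fit within litters called 9 of the 10 genes lower than in Ctr-OPCs and 0 higher. Of all genes tested, 15.3% were called lower, 16% higher and 31.3% in either direction. The largest falls were those of C1ql1 and Gpr17, to 19.8% and 23.5% of control, followed by Neu4 and Matn4. Pdgfra, Cspg4, Lhfpl3 and Cacng4 kept 58.9% to 66.1% of their control level and Vcan 77.3%. Ptprz1 was the exception and was not called. The median log2 fold change of the 10 genes was -0.75, against -0.01 over all genes tested. Of the 10 genes, 8 were lower in every litter, as were 22.8% of all genes tested.

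**Figure D2:**
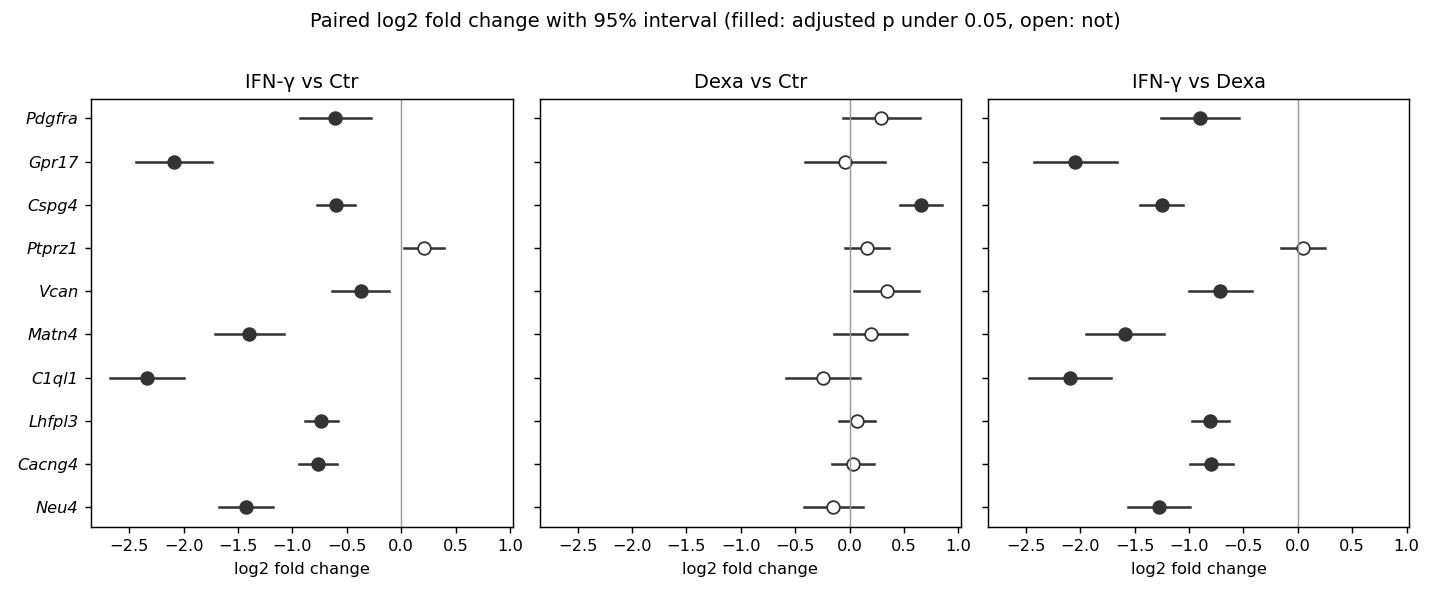
Log2 fold change of each gene (points) with its 95% interval (lines) from the paired fit, for IFN-γ against Ctr, Dexa against Ctr and IFN-γ against Dexa, where filled points passed an adjusted p of 0.05. With IFN-γ, 9 of 10 points lie below 0, from -0.37 (Vcan) to -2.34 (C1ql1), and with Dexa only Cspg4 is filled, at 0.65.

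Pdgfra, located at chr5:75152292-75198215 on the plus strand, encodes PDGF receptor α, through which PDGFaa in the medium drives OPC division. Its level was 1293, 2781, 3380 and 2547 CPM in Ctr-OPCs of replicates 1 to 4 and 566, 1771, 2304 and 2404 CPM with IFN-γ. Every litter was lower with IFN-γ, but replicate 4 by little (94.4% of its control) and replicate 1 by much (43.8%), and the 2 groups overlapped. The difference was a log2 fold change of -0.61 ± 0.15 (adjusted p = 0.00972, edgeR), or 65.7% of control. The call was lost without IFN-γ replicate 2 (adjusted p = 0.0522) and without the whole of replicate 2 (0.0997). The other PDGF genes gave 1 call among 5 tested, where 31.3% of all genes tested were called in either direction. Pdgfc, which encodes a ligand of the same receptor, rose by a log2 fold change of 1.21 ± 0.11, from 5.14 to 11.9 CPM. Pdgfa, the ligand that forms PDGFaa, was at 14.4 and 11.6 CPM (adjusted p = 0.0727). Pdgfrb, the other PDGF receptor and a marker of pericytes, averaged 0.837 CPM in Ctr-OPCs and 0.509 CPM with IFN-γ and was not called.

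Gpr17, a G protein-coupled receptor of the oligodendrocyte lineage, lies at chr18:31942997-31949636 on the minus strand. Its Ctr levels were 448, 1778, 4160 and 4831 CPM in replicates 1 to 4, and those with IFN-γ were 64.0, 471, 1301 and 1191 CPM. All litters moved alike, to between 14.3% (replicate 1) and 31.3% (replicate 3) of control, although IFN-γ replicates 2 to 4 overlapped with Ctr replicate 1. Its fitted log2 fold change was -2.09 ± 0.16 (adjusted p = 4.30e-06), which ranked 81 from the lowest of 17919 genes. The gene overlaps Lims2 on the opposite strand, whose reads reached 8.90% of those of Gpr17. Among 5 receptors related to Gpr17 by sequence or ligand, 3 were too low to test. Cysltr2, a receptor for cysteinyl leukotrienes, had 0 reads in the 4 Ctr libraries, which allows up to 3 in each, and 113 to 179 reads in the IFN-γ libraries, and it was called higher. The microglial receptor P2ry12 averaged 0.520 and 0.664 CPM and was not called.

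Cspg4 (chr9:56865033-56899870, plus strand) encodes the transmembrane proteoglycan NG2. It was at 489.8, 845, 982 and 778 CPM in Ctr-OPCs and at 279, 497, 745 and 581 CPM with IFN-γ, in replicates 1 to 4. Each litter kept 56.9% to 75.8% of its control, a narrow range for these genes, and the groups overlapped because replicates 2 to 4 with IFN-γ lay above Ctr replicate 1. The fall was 0.60 on the log2 scale, -0.60 ± 0.08 (adjusted p = 0.000260), and it was called with any single library left out (largest adjusted p = 0.00381).

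Ptprz1 (chr6:22875502-23052916, plus strand) encodes a receptor-type protein tyrosine phosphatase that carries chondroitin sulfate chains. Its level was 1632, 1659.8, 1981 and 1893 CPM in Ctr-OPCs and 1739.5, 1750.1, 2187 and 2695 CPM with IFN-γ. All 4 litters were higher with IFN-γ, as for 22.1% of all genes tested, at 105% to 110.4% of control in replicates 1 to 3 and at 142% in replicate 4, and the groups overlapped. The log2 fold change of 0.21 ± 0.08 (95% interval 0.02 to 0.39) did not pass over all genes (adjusted p = 0.0819). It passed without IFN-γ replicate 1 (0.0384), without a filter on low counts (0.0231) and on the TPM scale (0.0214), where the median of all genes lies 0.10 higher on the log2 scale than in the CPM fit. Of 8 ligands, partners and relatives of Ptprz1, 3 fell (15.3% of all genes tested) and 2 rose (16%). The neural adhesion gene Ncam1 (-0.82 ± 0.07) and the phosphatase gene Ptprs (-0.52 ± 0.07) fell, as did Cntn1 (-0.40 ± 0.09), a contactin that binds Ptprz1. Ptn, which encodes the ligand pleiotrophin, was at 686 and 652 CPM (adjusted p = 0.684), and Mdk, which encodes the related ligand midkine, rose from 0.886 to 1.37 CPM (0.62 ± 0.20).

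Vcan (chr13:89655312-89742509, minus strand) encodes versican, a secreted lectican that binds hyaluronan. Its level was 183, 302, 563 and 519 CPM in Ctr-OPCs and 191, 252, 326 and 364 CPM with IFN-γ. Replicate 1 was at 104% of its control and replicates 2, 3 and 4 at 83.3%, 58.0% and 70.1%, so that the litter with the lowest level showed no fall and the groups overlapped. In the fit the log2 fold change was -0.37 ± 0.12 (adjusted p = 0.0369), the weakest of the 9 calls. It was lost when Ctr replicate 2 (adjusted p = 0.0698), 3 (0.138) or 4 (0.0806), Dexa replicate 2 (0.0570) or IFN-γ replicate 2 (0.0542), 3 (0.143) or 4 (0.0974) was left out, and on the TPM scale (0.280).

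Matn4 (chr2:164389393-164405160, minus strand) encodes matrilin-4, a secreted adaptor protein of the extracellular matrix. It was at 10.3, 123, 161 and 55.8 CPM in Ctr-OPCs and at 3.26, 33.5, 88.6 and 22.5 CPM with IFN-γ, and thus varied 15.6-fold between control litters. Within litters it kept between 27.3% (replicate 2) and 54.9% (replicate 3) of control. This gave a log2 fold change of -1.40 ± 0.14 (adjusted p = 4.15e-05). The call was lost where the prefix of the sample titles, which replicates 3 and 4 share, served as the block (adjusted p = 0.0588). The gene overlaps Rbpjl on the opposite strand, whose reads reached 15.7% of those of Matn4.

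C1ql1 (chr11:102939264-102946688, minus strand) encodes a secreted protein of the C1q-like family, known as a synaptic organizer. Its level was 13.8, 42.3, 57.2 and 60.8 CPM in Ctr-OPCs and 1.81, 7.22, 17.3 and 11.5 CPM with IFN-γ. All litters were far lower, at 13.1% to 30.3% of control, and IFN-γ replicate 3 alone lay above the lowest Ctr library. The log2 fold change of -2.34 ± 0.15 (adjusted p = 1.42e-06) was the largest of the 10 and the only one that DESeq2 called without the block (adjusted p = 0.00914). The antisense gene Gm26668 had 12 to 48 reads, up to 43.3% of those of C1ql1 where C1ql1 was lowest. In the same family C1ql2 fell (-1.36 ± 0.25, from 1.43 to 0.597 CPM), C1ql3 was not called (10.9 and 9.42 CPM), and Adgrb3, which encodes a receptor for these proteins, was not called (95.1 and 104 CPM).

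Lhfpl3 (chr5:22746059-23275597, plus strand) encodes a tetraspan membrane protein, and it was at 200, 407, 504 and 598 CPM in Ctr-OPCs and at 103, 233, 340.4 and 393 CPM with IFN-γ. Replicate 1 was the lowest and replicate 4 the highest in both groups, and each litter lay at 51.3% to 67.5% of its control. Its log2 fold change was -0.73 ± 0.07 (adjusted p = 2.06e-05). Its relatives Lhfpl2 (-1.20 ± 0.18) and Lhfpl4 (-0.29 ± 0.06) fell as well, while Lhfp (0.13 ± 0.09) and Lhfpl5 (-0.30 ± 0.53) were not called.

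Cacng4 (chr11:107732357-107794557, minus strand) encodes TARP γ-4, an auxiliary subunit that accompanies AMPA-type glutamate receptors to the membrane. Its level was 96.1, 161, 187 and 176 CPM in Ctr-OPCs and 48.5, 83.8, 121 and 123 CPM with IFN-γ, in replicates 1 to 4. Each litter was lower, at 50.5% to 69.8% of control, with overlap between IFN-γ replicates 3 and 4 and Ctr replicate 1. The fitted difference was a log2 fold change of -0.76 ± 0.08 (adjusted p = 4.97e-05). Among 9 other TARP, AMPA receptor and cornichon genes tested, 3 fell (15.3% of all genes tested) and 3 rose (16%). Gria4 (-0.70 ± 0.07), Cacng7 (-0.44 ± 0.07) and Gria2 (-0.23 ± 0.06) fell, and Gria1 (2.36 ± 0.21, from 1.16 to 6.20 CPM), Cnih2 (0.57 ± 0.12) and Cacng8 (0.34 ± 0.12) rose.

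Neu4 (chr1:94020451-94028334, plus strand) encodes a sialidase, an enzyme that removes sialic acid from glycoconjugates. It was at 6.25, 40.4, 74.4 and 104 CPM in Ctr-OPCs and at 2.05, 16.4, 31.6 and 33.0 CPM with IFN-γ. The control litters spanned 16.7-fold, the widest range of the 10, but each litter kept a similar 31.7% to 42.5% of its control. The log2 fold change was -1.43 ± 0.11 (adjusted p = 6.32e-06), and its promoter window, shown above, is the one with the GAS core. The other sialidases Neu1 (-0.18 ± 0.09) and Neu3 (0.29 ± 0.16) were not called. St8sia4, which encodes a polysialic acid synthase, rose by a log2 fold change of 1.33 ± 0.09, from 8.73 to 22.0 CPM.

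**Figure D3:**
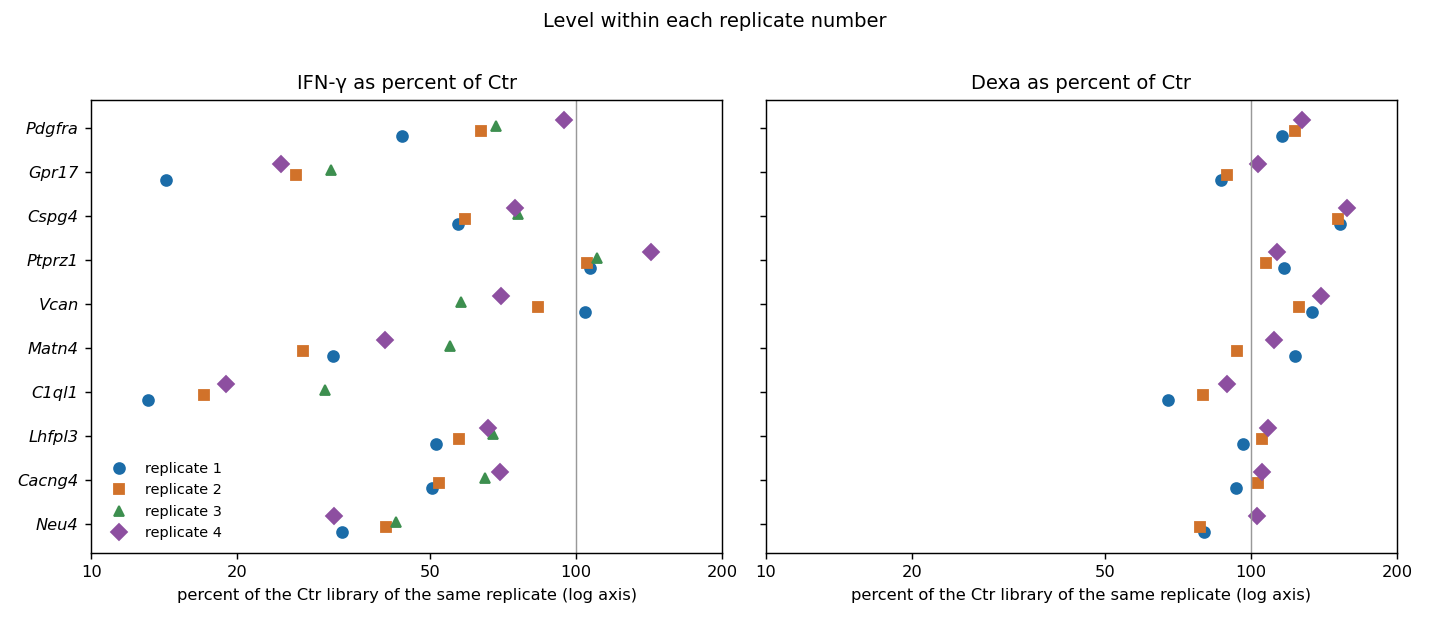
Level of each gene in IFN-γ (left) and Dexa (right) as percent of the Ctr library of the same replicate number, on a log axis, 1 point a litter. With IFN-γ the points of 8 genes lie left of 100 in all 4 litters, Ptprz1 lies between 105 and 142, and with Dexa the 3 points of Cspg4 lie together between 151 and 158.

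With dexamethasone 1 of the 10 genes was called. Cspg4 rose, and 1.31% of all genes tested were called higher and 1.57% in either direction. Its Dexa levels were 749, 1279 and 1228 CPM in replicates 1, 2 and 4, beside 489.8, 845 and 778 CPM in Ctr-OPCs of these litters. The rise was nearly the same in each, 153%, 151% and 158% of control, although Dexa replicate 1 lay below most Ctr libraries. The log2 fold change was 0.65 ± 0.09 (adjusted p = 0.00468, edgeR), and DESeq2 with the block also called it (1.00e-08). The call was lost without the block (adjusted p = 1.00), with the title prefix as the block (0.0653), without Dexa replicate 2 (0.0573) and without the whole of replicate 2 (0.158).

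The other 9 genes were not called with Dexa, although 4 of the 10 genes, Cspg4 included, were higher in every litter (21.3% of all genes) and 1 lower in every litter (22.8%). Vcan was at 125% to 139.5% of control in 3 of 3 litters, with a log2 fold change of 0.34 ± 0.13 (adjusted p = 0.364, edgeR). Its 95% interval, not adjusted over genes, ran from 103% to 155% of control. Pdgfra was at 116% to 128% of control in 3 of 3 litters (0.29 ± 0.16, adjusted p = 0.565) and Ptprz1 at 107% to 117% (0.16 ± 0.09, 0.592). C1ql1 was at 67.5%, 79.8% and 89.2% of control, lower in 3 of 3 litters, with a 95% interval from 66.6% to 107% of control (adjusted p = 0.631). Gpr17 (97.0% of control, interval 75.1% to 125%), Lhfpl3 (105%, 93.6% to 118%), Cacng4 (102%, 89.2% to 117%), Neu4 (90.3%, 74.8% to 109%) and Matn4 (114%, 90.6% to 145%) had intervals on both sides of control. The wider of these intervals do not exclude a moderate change. For the 4 genes that the incomplete table of Dexa replicate 3 lists whole, that library was at 115% (Vcan), 114% (C1ql1), 119% (Cacng4) and 94.9% (Neu4) of Ctr replicate 3, over the genes listed in all 12 libraries. With it, C1ql1 was thus above its control in 1 of 4 litters. A fit of all 12 libraries over these genes gave adjusted p from 0.155 (Vcan) to 0.826 (Cacng4) for Dexa and called all 4 for IFN-γ against Ctr-OPCs.

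Set directly against each other, IFN-γ-treated OPCs were lower than Dexa-treated OPCs for the same 9 genes, where 16.6% of all genes tested were lower. Ptprz1 was not called (log2 fold change 0.05 ± 0.09, 95% interval 89.7% to 119% of the Dexa level). For Cspg4 the difference of -1.25 ± 0.09 (adjusted p = 3.11e-06, edgeR) joins its fall with IFN-γ to its rise with Dexa. C1ql1 (-2.09), Gpr17 (-2.05), Matn4 (-1.59) and Neu4 (-1.28) differed more. For 1 of the 10 genes, Cspg4, the IFN-γ libraries (279 to 745 CPM) lay wholly below the Dexa libraries (749 to 1279 CPM). The gap was small, and 8.6% of all genes tested lay lower in the same way, a similar share. Vcan was at 61.0% (-0.71 ± 0.13) and Pdgfra at 53.6% (-0.90 ± 0.16) of the Dexa level. The IFN-γ libraries enter both this comparison and that with Ctr-OPCs, so the calls are not independent. Without the block, edgeR called 0 of the 10 lower (3.1% of all genes) and DESeq2 only Cspg4 (adjusted p = 0.0232, with 5.43% of all genes lower).

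Transcripts of a gene were compared as shares of its reads, where the gene had at least 100 reads in every Ctr and IFN-γ library, which left out C1ql1 and Neu4. Vcan came almost wholly from 2 transcripts. Vcan-202 (5702 bases) holds the shorter of the 2 long coding exons, as the versican form V2 does, and Vcan-203 (12427 bases) holds both, as V0 does. The V1-type transcript Vcan-206 took a mean of 0.628% and the V3-type Vcan-201 0.0128% of the reads. The share of Vcan-202 was 50.1%, 49.2%, 52.6% and 53.4% in Ctr-OPCs and 42.7%, 44.2%, 47.1% and 49.0% with IFN-γ. Every litter was lower with IFN-γ and the groups did not overlap, with means of 51.3% ± 2.01 and 45.8% ± 2.84 (SD, n = 4 each; exact two-sided permutation p = 0.0286, the smallest that 4 against 4 allows). Adjusted over the 11 transcripts compared, p was 0.157. That test does not pair the litters, and the exact paired test within litters gave p = 0.125, the smallest that 4 pairs allow. Vcan-203 made up the difference, with 45.7% ± 1.76 in Ctr-OPCs and 50.8% ± 2.41 with IFN-γ. In Dexa-treated OPCs the share of Vcan-202 was 50.9%. A read that fits both transcripts is divided by the quantification, so these shares are estimates.

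Ptprz1 was likewise carried by 2 transcripts. Ptprz1-201 has 30 exons and encodes the receptor, and Ptprz1-206 has 12 exons, of the kind that encodes the secreted proteoglycan phosphacan. Ptprz1-201 took 47.0% ± 1.22 of the reads in Ctr-OPCs and 43.7% ± 3.62 with IFN-γ, and Ptprz1-206 took 47.4% ± 1.38 and 48.9% ± 4.14. Replicate 1 ran against the other 3 litters for Ptprz1-206, with 45.4% in Ctr-OPCs and 43.3% with IFN-γ, and the groups overlapped for both. Gpr17 (Gpr17-201, 100% of reads in Ctr-OPCs) and Cacng4 (Cacng4-201, 99.6%) had a single main transcript. Pdgfra-201 took 89.6% of the reads of Pdgfra in Ctr-OPCs and 70.7% of its TPM.

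**Figure D4:**
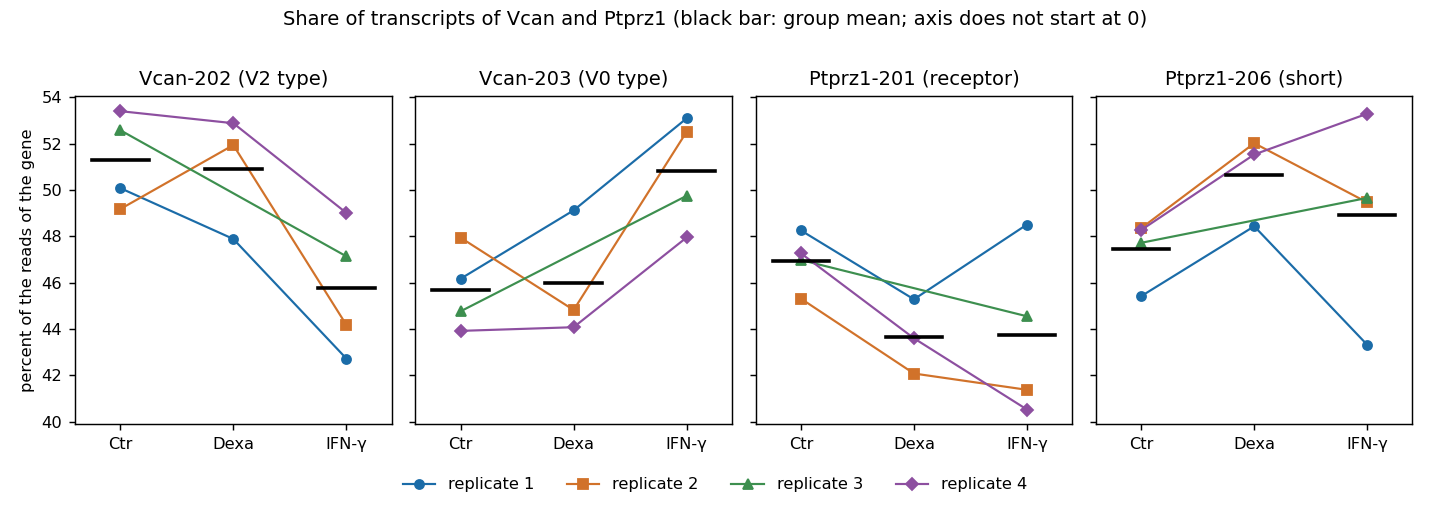
Share of the reads of Vcan in Vcan-202 and Vcan-203 and of Ptprz1 in Ptprz1-201 and Ptprz1-206, in percent, for Ctr, Dexa and IFN-γ, with 1 point a library, lines joining replicate numbers and black bars at the group means. The Vcan-202 bar drops from 51.3 in Ctr to 45.8 in IFN-γ, while the points of Ptprz1 cross between litters.

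The matrix genes around Vcan, Cspg4 and Matn4 formed a list of 13 genes: lecticans, link proteins, tenascins, matrilins and the proteoglycan gene Cspg5. The list was chosen with earlier results of these data known. Of the 11 tested, 7 fell with IFN-γ (15.3% of all genes) and 0 rose (16%). Their median log2 fold change was -0.64, against -0.01 over all genes. Tnr, which encodes the tenascin of perineuronal nets, fell by 1.32 on the log2 scale (-1.32 ± 0.07), from 715 to 284 CPM. Among the lecticans, Acan (aggrecan) fell (-2.26 ± 0.32, from 4.03 to 0.759 CPM) and Bcan (brevican) fell (-0.47 ± 0.07, from 695 to 506 CPM), while Ncan (neurocan) was at 988 and 909 CPM and was not called. The matrilins Matn2 (-1.35 ± 0.11, from 28.5 to 11.2 CPM) and Matn1 (-3.31 ± 0.48, from 1.36 to 0.115 CPM) fell together with Matn4. The link proteins Hapln1 (-1.24 ± 0.43) and Hapln3 (-0.64 ± 0.19) fell at low levels, and Hapln4 (-0.36 ± 0.13), Cspg5 (-0.26 ± 0.10) and Tnc (0.24 ± 0.17) were not called. With Dexa, Tnr (0.50 ± 0.08) and Hapln1 (1.84 ± 0.37, from 0.519 to 1.71 CPM) rose, and Tnc, the tenascin of developing tissue, fell (-1.14 ± 0.19, from 405 to 203 CPM).

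**Figure D5:**
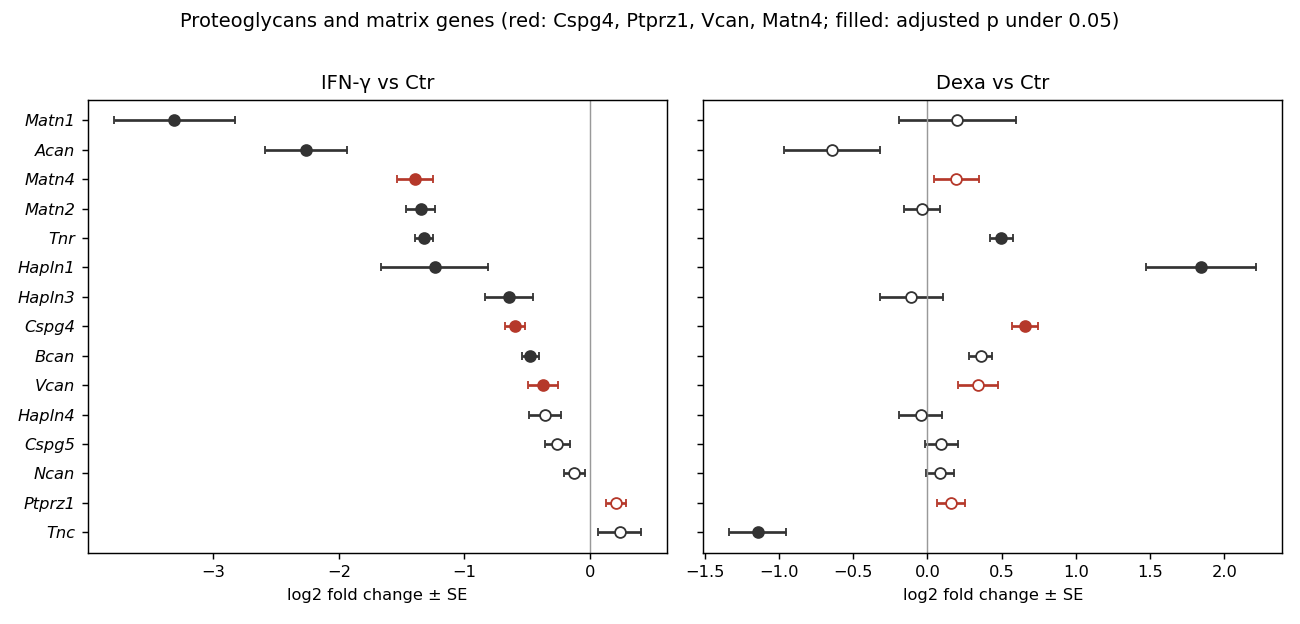
Log2 fold change ± SE of 11 lecticans, link proteins, tenascins, matrilins and Cspg5 (dark) and of Cspg4, Ptprz1, Vcan and Matn4 (red), with IFN-γ (left) and Dexa (right) against Ctr. Filled points passed an adjusted p of 0.05. With IFN-γ, 10 of the 15 points are filled, all below 0, and with Dexa only Cspg4, Tnr, Hapln1 and Tnc are filled.

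Genes that build or cut chondroitin sulfate proteoglycans moved in both directions with IFN-γ. Of 21 genes for making chondroitin sulfate, 5 fell (15.3% of all genes tested) and 4 rose (16%), with a median of -0.07. Xylt1, which starts the chains, fell by 0.35 on the log2 scale (-0.35 ± 0.09), and the sulfotransferase genes Chst7 (-0.62 ± 0.12) and Ust (-0.72 ± 0.12) fell while Chst11 rose (0.28 ± 0.08). Of 11 proteases known to cut versican or NG2, 5 rose and 2 fell, beside the same shares of all genes, with a median of 0.23. Adamts15 rose by a log2 fold change of 4.73 ± 0.31, from 0.717 to 18.7 CPM, and Adamts1 by 0.56 ± 0.10, while Adamts5 fell (-2.17 ± 0.18, from 12.2 to 2.68 CPM).

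Other lineage markers gave the setting of these changes, where 15.3% of all genes tested fell and 16% rose with IFN-γ. Of 14 further OPC genes, 7 fell with IFN-γ and 0 rose (median -0.41). Sox10, the lineage transcription factor whose promoter drove the Cre, fell by 0.55 on the log2 scale (-0.55 ± 0.07), and Susd5 fell at a low level (-2.06 ± 0.35), while Olig1 (-0.08 ± 0.10) and Olig2 (-0.16 ± 0.06) were not called. Of 11 genes of committed oligodendrocytes, among which Gpr17 is often counted, 7 fell and 3 rose. Bcas1 (-1.03 ± 0.14), Sirt2 (-1.14 ± 0.23) and Bmp4 (-3.91 ± 0.74, with 1 to 32 reads in the IFN-γ libraries) fell, and Tmem108 rose (2.84 ± 0.15). Of 10 mature oligodendrocyte genes, 3 fell and 1 rose: Myrf, which switches on the myelin genes, fell (-1.76 ± 0.25), Aspa rose (1.03 ± 0.28, from 0.705 to 1.24 CPM), and Mbp (-0.67 ± 0.25) was not called.

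Markers of other cell types moved beside these genes, and their part in the falls was not tested. The shares of all genes tested to set beside the IFN-γ counts are 16% higher and 15.3% lower. Of 9 astrocyte genes, 4 rose and 3 fell with IFN-γ, and their summed TPM was 156 to 325 in Ctr, 312 to 485 in Dexa and 280 to 447 in IFN-γ libraries. Within it Gfap rose from 0.604 to 8.63 CPM, Aldoc from 278 to 479.9 CPM, and S100b fell from 47.0 to 15.4 CPM. Of 8 neuronal genes tested, 3 rose and 3 fell. The summed TPM of all 12 neuronal genes listed was 17.7 to 30.4 in Ctr and 36.6 to 66.4 in IFN-γ libraries. The tubulin gene Tubb3 rose from 28.2 to 84.4 CPM and Syt1 from 6.22 to 13.3 CPM. Dcx fell from 74.8 to 42.0 CPM (-0.78 ± 0.10), Snap25 from 7.31 to 5.29 CPM (-0.46 ± 0.10) and Gad1 from 1.22 to 0.550 CPM (-1.29 ± 0.30), while Slc17a6, Slc17a7 and Stmn2 had under 10 reads in every library. Of 10 vascular and fibroblast genes tested, 2 rose (Acta2, with 79 to 224 reads in Ctr and 253 to 603 in IFN-γ libraries, and Lum, from 0.222 to 3.28 CPM) and Dcn fell. The summed TPM of all 13 on that list was at most 2.49 in Ctr and 5.84 to 8.04 in IFN-γ libraries. With Dexa, Flt1 of that list rose (1.01 ± 0.16, from 2.13 to 4.62 CPM). Of the microglial genes, P2ry12 (adjusted p = 0.347, edgeR) and Csf1r (0.748) were tested and not called with IFN-γ.

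The mean profile of the 10 genes over the 11 libraries was compared with those of 12201 other genes by the root mean square difference of centred log2 CPM. The nearest was Zfp488 (0.12), a transcription factor gene of the oligodendrocyte lineage, with a log2 fold change of -0.84 with IFN-γ. Ptpre (0.15), Elfn2 (0.16), Brinp1 (0.16) and Prkcq (0.17) came next. All 5 fell with IFN-γ, which follows from their choice, since the mean profile they were matched to is itself lower with IFN-γ. Among the 10 genes Lhfpl3 (0.25) and Pdgfra (0.32) lay closest to the mean profile and Ptprz1 (0.92) farthest. Lhfpl3 and Cacng4 were the most alike pair (0.25), and Gpr17 and Neu4 were each other's nearest (0.43). The points share library and litter, so these distances are a description.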

How the data were processed

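Total RNA of cultured OPCs was sequenced after ribosomal depletion in 12 libraries (4 Ctr, 4 Dexa, 4 IFN-γ). The authors deposited, per library, Salmon (0.8.2) tables in which every one of 141862 transcripts has its TPM and an estimated count. The genome build was GRCm38. The library kit keeps strand, but whether the quantification used it is not given in the sources used here, so the reads of genes that overlap on opposite strands may not have been kept apart. The table of Dexa replicate 3 ended early and was left out of the fits over 11 libraries. The other deposited tables hold the authors' own comparisons (mean normalized count, log2 fold change, its standard error, Wald score, p-value and adjusted p-value) and were not used.

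Estimated counts were summed per gene and rounded. A gene entered the edgeR test if 4 or more libraries held 10 or more of its counts. The fit used edgeR (4.0.16) in R (4.3.3), TMM factors and the model replicate plus group, and p-values were adjusted by Benjamini-Hochberg. Fits with DESeq2 (1.42.0), fits without the block, fits with limma (3.58.1) on log2(TPM + 1), other scalings, no filter, and fits without each library or litter were alternatives, of which those without a whole litter were chosen after seeing the data. Replicates came from different litters. P-values of the fit with the block set the treatment difference within litters against the variation left after the replicate and group terms. That variation was estimated over the Ctr, Dexa and IFN-γ libraries together, not for a single treatment. In fits without the block, the variation left also takes in differences in level between litters. Deviations of libraries with the same number correlated at 0.395 to 0.698 (10 pairs), against -0.587 to 0.463 for different numbers (30 pairs), and the numbers were taken as pairing the libraries. On simulated data of the same size for IFN-γ against Ctr, edgeR with the block found 74% of 2-fold and 94% of 4-fold changes among 200 changed of 17919 genes. Of its calls 9.28% were false, above the share that a threshold of 0.05 allows. These are medians of 3 draws. In the data 31.3% of genes were called, far more than were changed in the simulation, so these rates may not carry over. Transcript shares were compared by exact permutation tests without pairing, with the paired test as an alternative (SciPy 1.17.1).

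The members and gene lists were chosen with earlier results of these data known. Named genes were the 10 members, the relatives of each member's own small family, up to 4 genes a list by adjusted p among those whose log2 fold change reached 1 in size, and the 5 nearest profiles. Further list genes named beside them were chosen after their values were seen. Some list genes are not reported here.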

Additional observations from a re-analysis of the deposited data

How the results depend on the processing

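The calls within these 10 genes rested on the pairing by litter. Without the replicate block, edgeR called 0 and DESeq2 called 1 of the 10 genes lower for IFN-γ against Ctr, 0 and 1 for IFN-γ against Dexa, and 0 and 0 higher for Dexa against Ctr. Over all genes the unblocked fits called 427 (edgeR) and 865 (DESeq2) lower and 1086 and 1437 higher for IFN-γ against Ctr, from 2735 and 2871 with the block. They called 1 and 7 lower and 21 and 91 higher for Dexa against Ctr, from 47 and 235, and 556 and 973 lower and 1015 and 1372 higher for IFN-γ against Dexa, from 2969 and 3076. For Dexa against Ctr they turned the log2 fold changes of Matn4 (-0.47 and -0.46), Lhfpl3 (-0.015 and -0.014) and Cacng4 (-0.074 and -0.073), none of them called. DESeq2 with the block called 92 genes lower and 368 higher for Dexa. The cause of these changes was not tested.

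Without the filter on low counts, 1 of the 10 genes was called higher with IFN-γ (Ptprz1, with 2911 of all genes) and 2 with Dexa (Cspg4 and Vcan, adjusted p = 0.0399 in edgeR for Vcan), and 197 genes were lower and 445 higher with Dexa. With the title prefix as the block, 0 of the 10 were higher with Dexa, where 188 of all genes were higher and 26 lower, Matn4 turned to -0.16, and its IFN-γ against Dexa call was lost (adjusted p = 0.124). With limma on TPM, 1 of the 10 was higher with IFN-γ, where 3606 of all genes were higher and 848 lower, 1016 genes were lower than with Dexa, and 8 were lower and 109 higher with Dexa against Ctr. Of the IFN-γ against Ctr calls, 48.8% were lower in the paired fit, 60.3% with upper-quartile factors and 19.0% with limma on TPM. The Ptprz1 difference between IFN-γ and Dexa turned to -0.0093 with upper-quartile factors.

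Leaving out single libraries or litters gave 7 to 9 of the 10 genes lower and 0 to 1 higher for IFN-γ against Ctr, 0 to 1 higher for Dexa, and 8 to 9 lower for IFN-γ against Dexa. Over all genes it gave 1460 to 2845 lower and 1680 to 2938 higher, 1 to 72 lower and 28 to 322 higher, and 1502 to 3014 lower and 1576 to 2964 higher in these comparisons. The uncalled Dexa differences ran from -0.12 to 0.14 for Gpr17 and from -0.030 to 0.10 for Cacng4, and that of Ptprz1 between IFN-γ and Dexa from -0.079 to 0.14. Differences in transcript share between IFN-γ and Ctr, in percentage points, ran from -0.679 to 1.94 (Pdgfra-201), -0.670 to 0.549 (Cspg4-201), -0.0309 to 0.387 (Cspg4-203), -5.45 to 0.0973 (Matn4-201), -1.09 to 4.93 (Matn4-205), -1.29 to 5.23 (Lhfpl3-201) and -5.23 to 1.29 (Lhfpl3-202). Those of Vcan-202 and Vcan-203 lost their p under 0.05 without any 1 Ctr library or IFN-γ replicate 1, and Vcan-203 also without IFN-γ replicate 2 (p = 0.0571 in the exact permutation test), and both in the paired test with replicate as a block (p = 0.125, the smallest it allows). Counts were at least 60 for every one of the 10 genes, so that depth limits C1ql1, Neu4 and Matn4 in replicate 1 most.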
